A study of Rattus norvegicus with 6 samples.

Results

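Genes for the synthesis of cholesterol, fatty acids and the sphingolipids of myelin were compared between Schwann cell precursors (SCPs) and repair Schwann cells (RSCs) of the rat. The set held 35 genes, chosen by symbol from knowledge of these pathways, of the 29468 gene symbols in the tables. All 35 were found, and 31 had a mean of at least 1 FPKM (fragments counted per kilobase and adjusted for the number mapped) over the 6 samples and entered the comparison with 13003 genes in all. SCPs are the embryonic glia that migrate along growing nerves, and RSCs are the adult glia of an injured nerve that have given up myelin and help axons to regrow. All rats were of the LEWIS strain and given as wild type. The authors prepared their grafted cells from LEWIS rats that express RFP, and do not state separately which rats gave the sequenced cells. The 3 SCP samples were untreated cells from the sciatic nerves and brachial plexus at embryonic day 14. The 3 RSC samples came from the distal part of cut sciatic nerves of rats 10 weeks old, 1 week after the cut. The groups thus differed in age, injury, nerve and digestion, which cannot be told apart. How many animals gave each sample is not stated in the labels, so p-values measure the spread between these samples.

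Cholesterol is built from acetyl-CoA through mevalonate, isoprenoid units and squalene, and then through a series of sterols. SREBP transcription factors switch these genes on when membrane sterol is low: SREBP2, the product of Srebf2, acts mainly on sterol synthesis, and the products of Srebf1 act mainly on fatty acid synthesis. Scap carries SREBPs out of the endoplasmic reticulum and Insig proteins hold them there. Myelin is rich in cholesterol, very long chain fatty acids and galactosylceramide, and Schwann cells make much of this lipid themselves.

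The cells were checked against markers first. Sox10, the transcription factor of the Schwann lineage, was at 175 to 181 FPKM in SCPs and 143 to 149 FPKM in RSCs. S100b, a marker of the later lineage, ranged from 3.21 to 19.3 FPKM in SCPs and from 782 to 924 FPKM in RSCs. Each of the 9 measured macrophage and leukocyte markers was higher in RSCs, and their summed level was 15.2 to 45.0 FPKM in SCPs and 2276 to 2734 FPKM in RSCs. Fibroblast markers summed to 373 to 523 FPKM in SCPs and 3149 to 5198 FPKM in RSCs, with 4 of 6 higher in RSCs and Fbln1 higher in SCPs. Among 8 adipocyte markers Lep, Cidec and Plin4 were listed at 0 in every sample, Adipoq and Plin1 did not exceed 0.17 FPKM, and Fabp4 and Cfd were higher in RSCs. Erythroid markers, mostly globins, summed to 31501 to 135419 FPKM in SCPs, with SCP replicate 3 highest, and 1868 to 2474 FPKM in RSCs. Muscle and neuron markers were low, and some were higher in SCPs. Skeletal muscle markers summed to 38.4 to 95.5 FPKM in SCPs and 28.4 to 34.5 FPKM in RSCs, with 3 of 6 higher in SCPs, among them Myog (8.40 to 31.8 against 0 to 0.32 FPKM), and Des higher in RSCs. Neuron markers summed to 28.5 to 42.5 FPKM in SCPs and 17.7 to 28.2 FPKM in RSCs, with Stmn2 and Elavl4 of 4 tested higher in SCPs. Endothelial markers summed to 24.0 to 35.5 FPKM in SCPs and 35.4 to 42.5 FPKM in RSCs. In bulk RNA, fewer cells of a type and less RNA per cell cannot be told apart, and the part of these other cells in the results below was not tested.

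Of the 31 tested members, 16 (51.6%) differed between the groups at an unadjusted p under 0.01 in limma on log2(FPKM + 1), the threshold used throughout for "higher", and 40.5% of all tested genes did. Among them 10 were higher in SCPs (32.3% of the members, where 22.4% of all tested genes were) and 6 were higher in RSCs (19.4%, where 18.1% of all tested genes were). Only Elovl6 and Ugt8 also passed a log2 fold change of 2, which is 4-fold (6.45% of the members, where 11.6% of all tested genes did). In 21 members (67.7%) the 3 SCP values and the 3 RSC values did not overlap, which was so for 58.6% of all tested genes. The median log2 fold change of the members, RSC minus SCP, was -0.38 and that of all tested genes was -0.17. The direction differed by branch of the pathway: all 6 called sterol enzymes and both called enzymes of fatty acid synthesis were higher in SCPs, and both called desaturases and both called sphingolipid enzymes were higher in RSCs. Without SCP replicate 3, the sample with most globin, the same 16 members were called. SCP replicates 1 and 2 still held 35491 and 31501 FPKM of erythroid markers, so this fit cannot test the part of erythroid RNA.

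**Figure D1:**
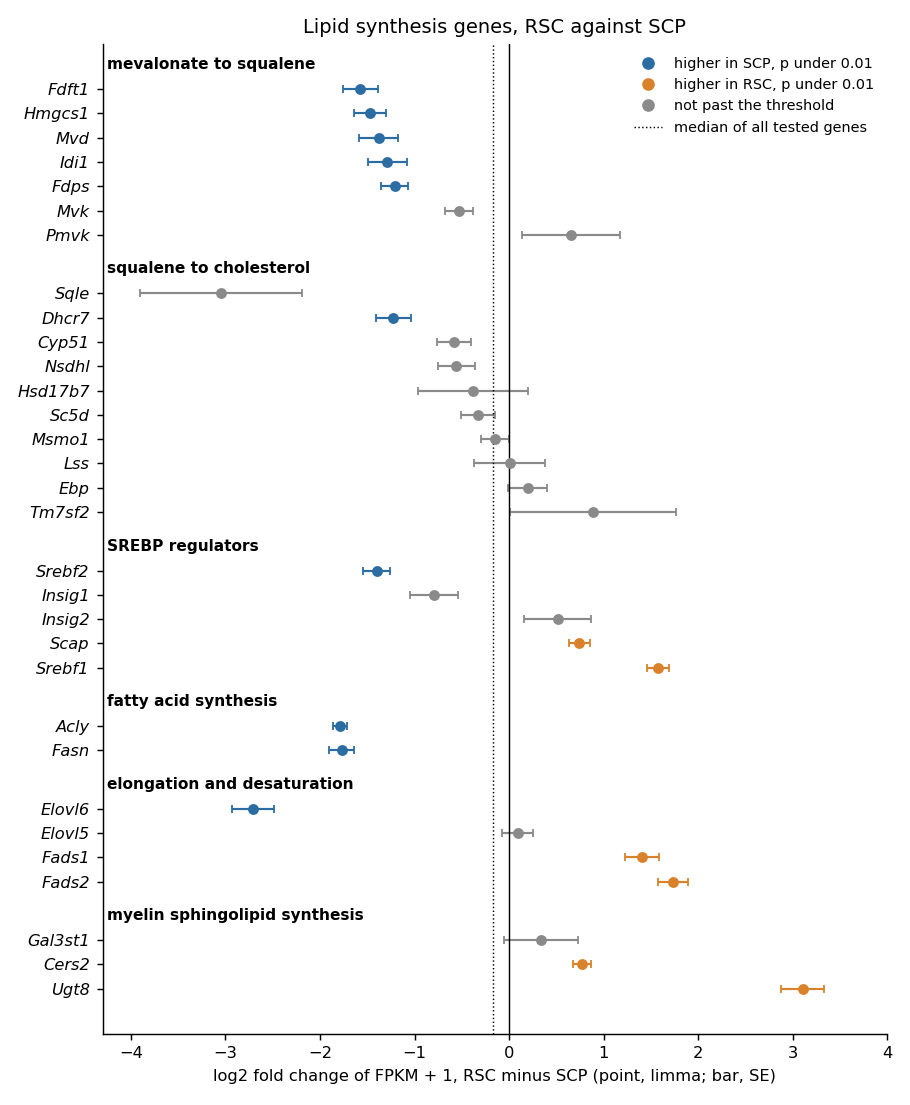
Log2 fold change (RSC minus SCP, on the log2(FPKM + 1) scale) of the 31 tested members in 6 role groups. Points are limma estimates from 3 SCP and 3 RSC samples, bars are standard errors, the dotted line is the median of all tested genes at -0.17, and colours mark the direction at p under 0.01. Elovl6 at -2.71 and Ugt8 at 3.11 are the called members farthest from 0.

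The steps from acetoacetyl-CoA to squalene gave the clearest group. SCPs had the higher level of 5 of the 7 tested members (71.4%, where 22.4% of all tested genes were higher in SCPs) and RSCs of none, and the median log2 fold change was -1.29. Fdft1, the squalene synthase that joins 2 farnesyl units, was at 13.9, 12.5 and 13.2 FPKM in SCP replicates 1, 2 and 3 and at 4.59, 4.05 and 2.86 FPKM in RSC replicates 1, 2 and 3. Every SCP value was over every RSC value, and the group means differed 3.45-fold (log2 fold change -1.57, SE 0.19, adjusted p = 0.00117). Hmgcs1, the HMG-CoA synthase at the head of the pathway, was at 57.1, 56.4 and 46.6 FPKM in SCPs and at 22.2, 15.0 and 19.1 FPKM in RSCs. The groups did not overlap there either, with a log2 fold change of -1.47 (SE 0.17, adjusted p = 0.00101). Mvd, which decarboxylates mevalonate diphosphate, was at 13.4, 9.80 and 9.76 FPKM in SCPs and at 4.46, 3.08 and 3.26 FPKM in RSCs, again with no overlap (log2 fold change -1.38, SE 0.21, adjusted p = 0.00292). By its highest transcript alone Mvd was not called (log2 fold change -1.01).

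Fdps, which makes farnesyl diphosphate, was the most abundant member of the group per length of transcript, at 70.4 to 90.5 FPKM in SCPs and 31.1 to 40.4 FPKM in RSCs. Idi1, the isomerase of the isoprenoid units, was at 8.61 to 11.8 FPKM in SCPs and 3.35 to 4.65 FPKM in RSCs, so that both genes were also higher in SCPs without overlap. The 2 kinases did not pass by their named transcripts. Mvk, mevalonate kinase, was at 11.9 to 15.1 FPKM in SCPs and 8.0 to 9.58 FPKM in RSCs (adjusted p = 0.0284 in limma), with all SCP values above all RSC values, and with unnamed transcripts it was higher in SCPs (log2 fold change -0.65, adjusted p = 0.00265 in limma). Pmvk, the kinase after it, overlapped widely, at 5.38 to 22.4 FPKM in SCPs and 11.9 to 23.9 FPKM in RSCs. Unnamed transcripts raised its SCP replicate 2 to 75.7 FPKM and turned its log2 fold change from 0.65 to -0.44, neither of them past the threshold.

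Promoters are shown for the called genes of this group that are in the RefSeq promoter table, since they differed in the same direction. The table (build GRCr8) matched 29 of the 35 members with 30 starts. Fasn, Elovl6, Fdft1, Acaca, Sqle and Pmvk did not match. The 250 bases before each start were searched on both strands for CCAAT, the letters bound by NF-Y, and for TCACNCCAC, a short form of the sterol regulatory element. CCAAT was found in 23 of the 30 member promoters (76.7%), in 12 of 14 of those of cholesterol synthesis genes (85.7%), and in 34.9% of the 9754 promoters of tested genes. These 9754 promoters belong to 8789 of the 13003 tested genes, and the others did not match. TCACNCCAC was found in none of the 30 and in 0.974% of the promoters of tested genes, which says only that these letters are not in these windows. In the sequences, 5′ to 3′ along the gene, capitals mark CCAAT or its reverse complement ATTGG:
Hmgcs1, chr2:53382054-53382303, plus strand: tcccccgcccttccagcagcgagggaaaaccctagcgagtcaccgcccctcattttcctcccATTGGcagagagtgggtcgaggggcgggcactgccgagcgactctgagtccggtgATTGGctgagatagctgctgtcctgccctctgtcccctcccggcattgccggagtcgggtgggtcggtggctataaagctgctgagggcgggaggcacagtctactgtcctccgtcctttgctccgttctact
Mvd, chr19:67414975-67415224, minus strand: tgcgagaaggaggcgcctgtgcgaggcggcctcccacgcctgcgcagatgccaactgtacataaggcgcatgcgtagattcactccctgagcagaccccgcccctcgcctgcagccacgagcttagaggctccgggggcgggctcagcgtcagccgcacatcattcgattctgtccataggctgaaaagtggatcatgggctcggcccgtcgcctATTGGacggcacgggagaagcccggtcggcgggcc
Idi1, chr17:66547525-66547774, minus strand: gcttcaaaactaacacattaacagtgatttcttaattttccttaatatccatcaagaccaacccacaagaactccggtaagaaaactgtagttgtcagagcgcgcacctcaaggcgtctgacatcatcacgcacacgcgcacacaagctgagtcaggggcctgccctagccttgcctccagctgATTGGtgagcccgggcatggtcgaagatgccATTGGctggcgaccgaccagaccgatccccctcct
Fdps, chr2:176804817-176805066, minus strand: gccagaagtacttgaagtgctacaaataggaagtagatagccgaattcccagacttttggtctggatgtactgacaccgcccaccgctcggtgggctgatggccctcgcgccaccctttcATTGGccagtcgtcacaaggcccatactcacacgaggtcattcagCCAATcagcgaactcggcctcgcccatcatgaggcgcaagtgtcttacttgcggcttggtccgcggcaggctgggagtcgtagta
Hmgcs1, Idi1 and Fdps each held 2 such sites and Mvd held 1. The sites of Hmgcs1 began 188 and 133 bases before the start and those of Idi1 began 66 and 35 bases before it. These matches are a description of the letters and no measure of binding.

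Between squalene and cholesterol the difference was smaller and less uniform. Of 10 tested members only Dhcr7 was higher in SCPs and none was higher in RSCs (10.0% called, against 40.5% of all tested genes), with a median log2 fold change of -0.36. Dhcr7, the reductase of the last step to cholesterol, was at 21.5, 18.1 and 19.8 FPKM in SCPs and at 10.0, 6.36 and 7.57 FPKM in RSCs. It had no overlap between groups, and its means differed 2.48-fold (log2 fold change -1.23, SE 0.19, adjusted p = 0.00289). By its highest transcript alone Dhcr7 was not called (log2 fold change -0.72). Cyp51, the lanosterol demethylase, was at 27.3 to 40.4 FPKM in SCPs and 18.9 to 23.8 FPKM in RSCs, and Nsdhl, a later demethylation enzyme, at 4.68 to 4.94 and 2.34 to 3.57 FPKM. Both lay apart without passing p under 0.01 (adjusted p = 0.0377 and 0.0584 in limma). Msmo1, Sc5d, Ebp and Lss, which act on sterol intermediates, overlapped between the groups by their named transcripts. Msmo1 was at 19.0 to 25.1 FPKM in SCPs and 17.7 to 21.9 FPKM in RSCs, and Lss had means of 5.92 and 5.89 FPKM. With unnamed transcripts of their loci Lss was at 8.96 to 12.6 FPKM in SCPs and 6.57 to 8.30 FPKM in RSCs, and Sc5d at 13.1 to 17.4 and 10.6 to 12.3 FPKM, without overlap but not called (adjusted p = 0.0456 and 0.0327 in limma). The assemblies added to Sc5d reached 2521 to 2605 bases beyond the gene in SCPs and 602 to 1068 bases in RSCs. Signal from outside Sc5d may thus be in these values.

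In 8 of the 10 genes of this branch Cufflinks placed part of the signal of the locus in assembled transcripts that carry no gene name, in at least 1 sample. With these added, 3 of the 10 members of the branch were called, all higher in SCPs, where 57.3% of all tested genes were called. Sqle, the squalene epoxidase, was listed at 33.4, 33.4 and 21.7 FPKM in SCPs and at 10.0, 0 and 3.32 FPKM in RSCs (log2 fold change -3.05, SE 0.85, adjusted p = 0.0289). With the unnamed transcripts of its locus it was at 38.2, 33.4 and 27.9 FPKM in SCPs and 26.3, 10.5 and 18.4 FPKM in RSCs, a smaller log2 fold change of -0.89 that did not pass either. The RSC values stayed below the SCP values in both counts. Tm7sf2, a sterol reductase, was listed at 0, 7.71 and 0 FPKM in SCPs and at 2.79, 3.30 and 2.39 FPKM in RSCs (log2 fold change 0.89, SE 0.88, adjusted p = 0.447). With unnamed transcripts its SCP values became 25.1, 11.1 and 28.0 FPKM, all over the RSC values, and the direction turned (log2 fold change -2.46, adjusted p = 0.000798 in limma). In SCP replicates 1 and 3 the added value was a single assembly that ran 10478 and 10175 bases past the gene, so signal from outside Tm7sf2 may be in it. Hsd17b7 was at 0 to 3.62 FPKM in SCPs and 0.34 to 0.93 FPKM in RSCs, and with unnamed transcripts at 1.70 to 3.62 and 0.81 to 0.93 FPKM, when it was higher in SCPs (adjusted p = 0.00906 in limma).

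**Figure D2:**
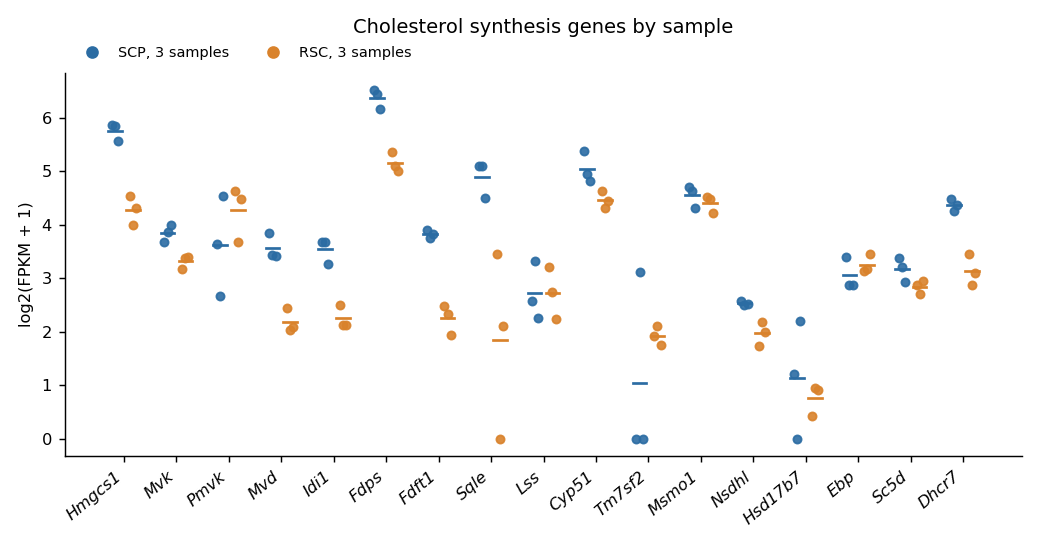
Levels of the 17 cholesterol synthesis members in each sample as log2(FPKM + 1), with genes in pathway order from Hmgcs1 to Dhcr7. Points are the 3 SCP and 3 RSC samples and bars are group means. The groups lie apart for 10 genes (58.8%, near the 58.6% of all tested genes), among them Hmgcs1, Fdps, Fdft1 and Dhcr7. Values of 0 appear in 1 RSC sample for Sqle, 2 SCP samples for Tm7sf2 and 1 SCP sample for Hsd17b7.

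The SREBP factors themselves moved in opposite directions. Srebf2 was at 40.4, 38.1 and 32.7 FPKM in SCP replicates 1, 2 and 3 and at 14.6, 14.3 and 11.4 FPKM in RSC replicates 1, 2 and 3. The lowest SCP value exceeded the highest RSC value, and the means differed 2.76-fold (log2 fold change -1.40, SE 0.14, adjusted p = 0.00063). Srebf1 was at 12.5, 13.6 and 15.9 FPKM in SCPs and at 41.9, 42.2 and 46.6 FPKM in RSCs, 3.11 times as high by the means and without overlap (log2 fold change 1.57, SE 0.12, adjusted p = 0.000231). Within each sample the ratio of Srebf1 to Srebf2 was 0.31, 0.357 and 0.485 in SCPs and 2.87, 2.95 and 4.07 in RSCs, so the more abundant of the pair differed between the groups in every sample.

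As Cufflinks assigned the signal, the Srebf1 difference lay in a single transcript. The gene gives rise to proteins with different first exons from separate starts, and the tables name 2 expressed transcripts on rn6 that share their lower end on chromosome 10 at 46570996. The longer runs to 46593009 and holds 4377 bases, and the shorter ends 10155 bases before that, at 46582854, and holds 4264 bases. In SCPs all Srebf1 signal was assigned to the longer transcript, and the shorter was listed at 0 in all 3 samples. In RSCs the longer was at 12.0, 15.9 and 22.8 FPKM, which overlaps the SCP range, and the shorter was at 29.8, 26.3 and 23.8 FPKM. The shorter transcript thus made up 71.2%, 62.3% and 51.0% of Srebf1 in RSC replicates 1, 2 and 3. Counting only the longer transcript, the one with the higher mean over the 6 samples, Srebf1 was no longer called (log2 fold change 0.22). Cufflinks divides reads of shared exons between transcripts by a model, and the tables do not name the protein form of either. Since a listed 0 can be a failed estimate, whether the shorter transcript is absent from SCPs was not tested.

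RefSeq places Srebf1 on the minus strand of chromosome 10 in GRCr8 with 2 starts 10154 bases apart, close to the distance between the transcript ends on rn6. The 250 bases before each start and before that of Srebf2 are shown because these genes carried the contrast, with capitals as above:
Srebf1, upstream start, chr10:45529165-45529414, minus strand: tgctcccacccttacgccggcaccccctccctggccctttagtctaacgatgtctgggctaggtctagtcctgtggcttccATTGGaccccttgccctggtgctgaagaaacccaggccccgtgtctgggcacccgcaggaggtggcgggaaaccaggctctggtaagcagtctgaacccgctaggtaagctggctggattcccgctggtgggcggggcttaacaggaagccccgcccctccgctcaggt
Srebf1, downstream start, chr10:45519011-45519260, minus strand: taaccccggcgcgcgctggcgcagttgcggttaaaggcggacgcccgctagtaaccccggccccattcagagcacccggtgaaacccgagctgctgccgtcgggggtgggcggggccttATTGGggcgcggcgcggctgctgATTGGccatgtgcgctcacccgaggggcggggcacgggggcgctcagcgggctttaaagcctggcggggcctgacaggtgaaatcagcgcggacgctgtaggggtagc
Srebf2, chr7:115543057-115543306, plus strand: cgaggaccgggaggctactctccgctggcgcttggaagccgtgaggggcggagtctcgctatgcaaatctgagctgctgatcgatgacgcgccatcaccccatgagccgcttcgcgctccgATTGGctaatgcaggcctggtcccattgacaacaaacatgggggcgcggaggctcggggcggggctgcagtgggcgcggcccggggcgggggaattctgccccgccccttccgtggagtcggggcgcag
The upstream start of Srebf1 had 1 CCAAT site, 169 bases before it, and the downstream start had 2, at 131 and 108 bases. Srebf2 had 1 site, 129 bases before its start.

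**Figure D3:**
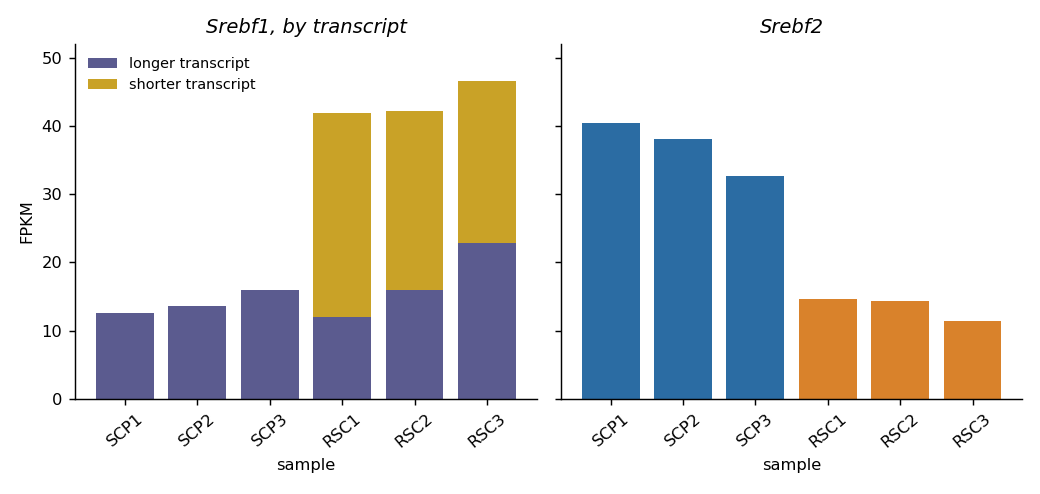
Srebf1 (left, stacked by transcript) and Srebf2 (right) in FPKM in the 3 SCP and 3 RSC samples, both axes from 0. The shorter Srebf1 transcript is seen in the RSC samples at 23.8 to 29.8 FPKM, and Srebf2 stands at 32.7 to 40.4 FPKM in SCPs and 11.4 to 14.6 FPKM in RSCs.

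Of the proteins that hold or move SREBPs, Scap was at 14.2, 14.8 and 15.3 FPKM in SCPs and at 24.4, 27.8 and 24.0 FPKM in RSCs. All RSC values were higher (log2 fold change 0.74, SE 0.11, adjusted p = 0.00251). With unnamed transcripts SCP replicate 1 rose to 25.1 FPKM, the groups overlapped and the call was lost (adjusted p = 0.0763 in limma), as it was by the highest transcript alone (log2 fold change 0.44). Insig1 was at 20.6 to 34.7 FPKM in SCPs and 12.1 to 19.7 FPKM in RSCs and did not pass (adjusted p = 0.0436 in limma), and with unnamed transcripts the groups overlapped at 26.7 to 36.0 and 26.0 to 30.8 FPKM. Insig2 overlapped at 4.09 to 6.43 and 4.59 to 12.4 FPKM.

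Fatty acid synthesis genes differed in the direction of the sterol genes and of Srebf2. Acly, which makes cytosolic acetyl-CoA from citrate, was the most abundant member in SCPs per length of transcript, at 244, 218 and 223 FPKM, and stood at 65.1, 62.1 and 68.8 FPKM in RSCs. The spread within each group was small against the 3.49-fold difference of the means (log2 fold change -1.79, SE 0.08, adjusted p = 3.84e-05). Fasn, the fatty acid synthase, was at 96.0, 88.9 and 97.7 FPKM in SCPs and at 30.4, 22.1 and 28.8 FPKM in RSCs, again without overlap (log2 fold change -1.77, SE 0.14, adjusted p = 0.000235). Acaca, the acetyl-CoA carboxylase between them, was listed at 0 by name in all 6 samples, while unnamed transcripts of its locus held 14.5 to 16.8 FPKM in SCPs and 11.8 to 13.5 FPKM in RSCs. On that count the 3 SCP values were all higher, by a log2 fold change of -0.28 that did not pass (SE 0.11, adjusted p = 0.0571 in limma). The SCP values include an assembly reaching 77776, 77824 and 77471 bases beyond the gene, at 2.42, 1.93 and 6.24 FPKM in replicates 1, 2 and 3. No RSC assembly reached more than 15977 bases beyond it. Signal from outside Acaca may thus be in these values, and the difference was not tested without it.

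Elongases and desaturases split. Elovl6, which extends palmitate to stearate, was at 8.73, 7.90 and 6.15 FPKM in SCPs and at 0.45, 0.17 and 0.31 FPKM in RSCs. It had the largest drop of any called member (log2 fold change -2.71, SE 0.22, adjusted p = 0.000294), which the added 1 understates at such low RSC values, since the means differed 24.6-fold. The desaturases went the other way. Fads2, the delta-6 desaturase of polyunsaturated fatty acids, was at 97.4, 76.4 and 81.0 FPKM in SCPs and at 340, 235 and 285 FPKM in RSCs (log2 fold change 1.73, SE 0.16, adjusted p = 0.000465). Fads1, the delta-5 desaturase, was at 66.4, 63.6 and 44.8 FPKM in SCPs and at 142, 176 and 146 FPKM in RSCs (log2 fold change 1.41, SE 0.18, adjusted p = 0.00142). Neither gene had an RSC value within the SCP range. The ratio of Fads2 to Fasn in a sample was 0.829 to 1.02 in SCPs and 9.90 to 11.2 in RSCs.

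Elovl5, an elongase of polyunsaturated fatty acids, overlapped, at 32.5 to 45.7 FPKM in SCPs and 40.2 to 49.3 FPKM in RSCs. Elovl7 was under the filter, at 0 to 0.47 FPKM in SCPs and 0.30 to 3.37 FPKM in RSCs. Elovl1, an elongase of very long chain fatty acids, was listed at 0 by name in all samples. Unnamed transcripts of its locus held 43.8, 51.0 and 50.3 FPKM in SCPs and 104, 103 and 103 FPKM in RSCs, and on that count the gene was higher in RSCs (log2 fold change 1.08, SE 0.08, adjusted p = 6.2e-05 in limma). Each value was a single assembly that reached 1385 to 1411 bases beyond the gene, so signal from outside Elovl1 may be in it.

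Enzymes of myelin sphingolipids were higher in RSCs or not called, and none was higher in SCPs. Ugt8, which adds galactose to ceramide to form the galactosylceramide of myelin, was at 2.04, 3.11 and 2.98 FPKM in SCPs and at 39.5, 29.9 and 24.4 FPKM in RSCs. It had the largest rise of any tested member, with means that differed 11.5-fold (log2 fold change 3.11, SE 0.23, adjusted p = 0.000197). Cers2, the ceramide synthase for very long chain acyl groups, was at 49.0, 53.2 and 58.9 FPKM in SCPs and at 96.5, 87.2 and 92.1 FPKM in RSCs, with no overlap (log2 fold change 0.77, SE 0.10, adjusted p = 0.00139). Gal3st1, which sulfates galactosylceramide to sulfatide, overlapped, at 2.73, 5.61 and 5.15 FPKM in SCPs and at 9.14, 3.34 and 5.98 FPKM in RSCs (log2 fold change 0.34, SE 0.39, adjusted p = 0.513). Fa2h, which hydroxylates the fatty acid of these lipids, was listed at 0, 0.07 and 0 FPKM in SCPs and at 0, 0.66 and 1.67 FPKM in RSCs and was under the filter.

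Myelin genes moved with this group. Egr2, the transcription factor of myelination, was at 3.10 to 4.25 FPKM in SCPs and 34.7 to 39.2 FPKM in RSCs, and Mbp, a myelin protein, at 2.55 to 8.26 and 225 to 282 FPKM. Of 8 myelinating Schwann cell markers 5 were tested and 4 were higher in RSCs. Whether these levels and those of Ugt8 are tied was not tested.

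**Figure D4:**
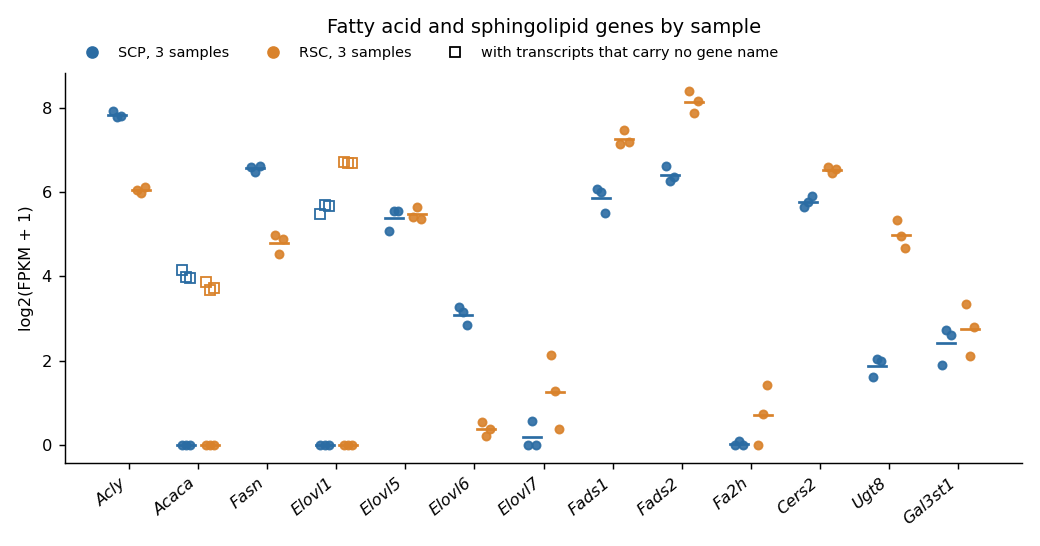
Levels of the 13 fatty acid and sphingolipid members in each sample as log2(FPKM + 1). Filled points are named transcripts in 3 SCP and 3 RSC samples, bars are group means, and open squares for Acaca and Elovl1 add unnamed transcripts of the locus. Acly, Fasn and Elovl6 are higher in SCPs, and Fads1, Fads2, Cers2 and Ugt8 are higher in RSCs.

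Unnamed transcripts bore on 25 of the 35 members in at least 1 sample. With them added, 33 members were tested and 19 (57.6%) were called, 13 higher in SCPs and 6 higher in RSCs, where 57.3% of all tested genes were called. Of all called genes in that setting 40.4% were higher in RSCs, so most called genes were higher in SCPs there as well. Named transcripts alone had given 10 members higher in SCPs, and the SCP tables held more of their FPKM in unnamed transcripts (26.1% to 31.9%, and 18.6% to 23.4% in RSCs).

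The genes around these pathways, on lists written from general knowledge, were described in the same way. Among 14 tested genes of other sterol synthesis and SREBP control, SCPs had the higher level of 2 and RSCs of 1, with a median log2 fold change of -0.18 (21.4% called, where 40.5% of all tested genes were). With unnamed transcripts 10 of 17 were called, 8 higher in SCPs and 2 higher in RSCs, where 57.3% of all tested genes were called. Acat2, a thiolase that makes acetoacetyl-CoA, was at 67.4, 66.4 and 72.3 FPKM in SCPs and at 0, 8.49 and 9.51 FPKM in RSCs.

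Sterol export, storage and the oxysterol response gave the opposite picture to synthesis. All 15 genes of that list were higher in RSCs, where 18.1% of all tested genes were, and 12 of them were over 4-fold, with a median log2 fold change of 2.83. With unnamed transcripts 14 of the 15 were higher in RSCs. In that setting 57.3% of all tested genes were called, and 40.4% of the called genes were higher in RSCs. Apoe, the apolipoprotein that carries exported sterol, was at 62.2, 67.0 and 49.2 FPKM in SCPs and at 8889, 11853 and 13435 FPKM in RSCs (log2 fold change 7.55, SE 0.19, adjusted p = 1.14e-05). Abca1, which moves cholesterol out of cells, was listed at 0, 5.52 and 0 FPKM in SCPs and at 29.7, 53.4 and 24.6 FPKM in RSCs, and with unnamed transcripts at 8.98 to 18.1 and 101 to 134 FPKM. Macrophages also express many of these genes, and macrophage markers moved with the list: Lyz2 was at 1.99 to 6.04 FPKM in SCPs and 1468 to 1771 FPKM in RSCs. Their part in these values was not tested.

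**Figure D5:**
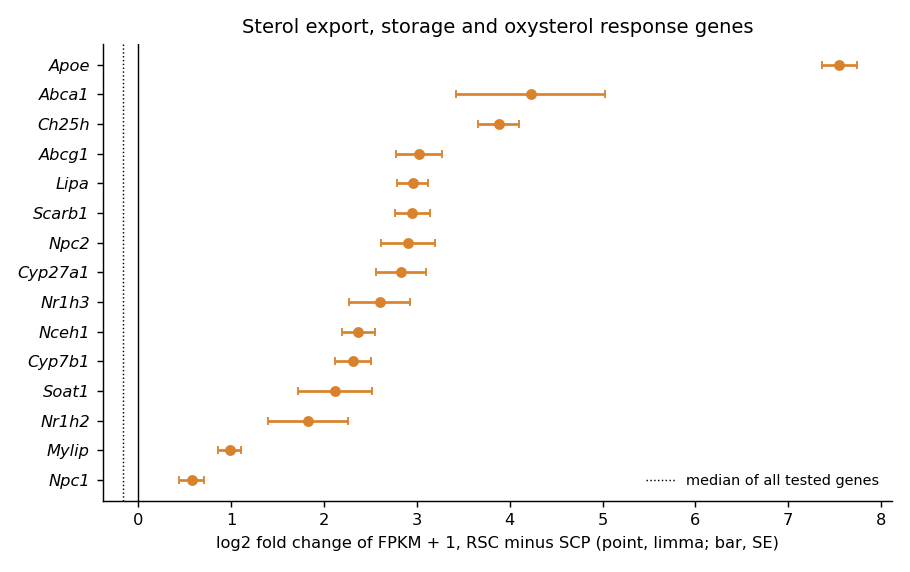
Log2 fold change (RSC minus SCP, on the log2(FPKM + 1) scale) of the 15 genes of sterol export, storage and oxysterol response. Points are limma estimates from 3 SCP and 3 RSC samples, bars are standard errors, and the dotted line is the median of all tested genes. Values run from 0.57 for Npc1 to 7.55 for Apoe.

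In other fatty acid synthesis, elongation and activation 4 of 18 tested genes were higher in each group (44.4% called, near the 40.5% of all tested genes). With unnamed transcripts 13 of 19 were called, 9 higher in RSCs and 4 higher in SCPs, where 57.3% of all tested genes were called. Scd, the desaturase that makes oleate, was at 399, 398 and 411 FPKM in SCPs and at 1463, 1400 and 1531 FPKM in RSCs (log2 fold change 1.86, SE 0.06, adjusted p = 1.89e-05), though reads can be shared with the near-identical Scd1. Me1, an NADPH source of fatty acid synthesis, was at 1.07 to 1.90 FPKM in SCPs and 6.32 to 6.87 FPKM in RSCs. Elovl2, an elongase of polyunsaturated fatty acids, was at 8.69 to 10.2 FPKM in SCPs and 0.23 to 0.42 FPKM in RSCs, the direction of Elovl6. Elovl4 was at 1.71 to 5.19 FPKM in SCPs and listed at 0 in all RSC samples, where unnamed transcripts held 1.12 to 1.33 FPKM.

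Other sphingolipid synthesis had 4 of 16 tested genes higher in RSCs and 1 higher in SCPs (31.2% called, where 40.5% of all tested genes were). With unnamed transcripts 7 of 17 were called, 4 higher in RSCs and 3 higher in SCPs, where 57.3% of all tested genes were called. Sgms2, a sphingomyelin synthase, was at 0.41 to 0.64 FPKM in SCPs and 5.23 to 7.62 FPKM in RSCs. Sptssa, a small subunit of serine palmitoyltransferase, was at 45.5 to 52.1 FPKM in SCPs and 31.6 to 39.0 FPKM in RSCs. Ormdl2, a regulator of that enzyme, was listed at 0 in all SCP samples and at 30.3 to 39.4 FPKM in RSCs.

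Sphingolipid breakdown, which takes place mostly in lysosomes, had 9 of 14 tested genes higher in RSCs, where 18.1% of all tested genes were, and 1 higher in SCPs, with a median log2 fold change of 1.32. Gm2a, an activator protein of ganglioside breakdown, was at 48.5 to 61.1 FPKM in SCPs and 314 to 350 FPKM in RSCs. Gba2, a non-lysosomal glucosylceramidase, was at 24.0 to 30.2 FPKM in SCPs and listed at 0 in all RSC samples. Galc, which degrades galactosylceramide, was under the filter by name and was chosen after its values were seen: with unnamed transcripts it was at 2.04 to 2.24 FPKM in SCPs and 22.4 to 24.8 FPKM in RSCs, the same direction as Ugt8.

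Fatty acid oxidation showed few calls: of 19 tested genes RSCs had the higher level of 3 and SCPs of 2 (26.3%, against 40.5% of all tested genes), with a median log2 fold change of -0.04. Cpt1a, which admits fatty acids to mitochondria, was at 3.70 to 11.4 FPKM in SCPs and 30.7 to 39.5 FPKM in RSCs, and Acadvl, the very long chain acyl-CoA dehydrogenase, at 18.8 to 23.9 and 31.2 to 53.4 FPKM. Slc25a20, the carnitine carrier, was at 30.8 to 33.1 FPKM in SCPs and 21.0 to 23.9 FPKM in RSCs, and Echs1, an enoyl-CoA hydratase, at 34.1 to 38.7 and 20.6 to 23.6 FPKM.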

How the data were processed

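RNA from 3 SCP and 3 RSC samples was made into stranded mRNA libraries and sequenced in pairs. The authors mapped reads to rn6 and, per the labels, used FastQC 0.11.2, TopHat2 2.1.0 and Cufflinks 2.2.1. For each sample they deposited a transcript table with FPKM and read coverage, a signal whose ratio to FPKM gave the relative depth. This was 0.88 to 1.00 of the highest sample in SCPs and 0.79 to 0.84 in RSCs. Absolute depth is unknown, so no counting interval or detection limit is given.

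FPKM of named transcripts were summed by symbol, and 77 transcripts with date-like names were left out of each table. Symbols whose mean over all samples reached 1 FPKM were compared by group (SCP subtracted from RSC) by a two-sided limma test with a variance trend on log2(FPKM + 1) (limma 3.58.1, R 4.3.3). Adding 1 understates changes of low genes. The Benjamini-Hochberg method adjusted p over the 13003 genes in the fit. A 0 can be a failed Cufflinks estimate, so it is described as listed at 0. Unnamed transcripts were added to the named gene they overlap in the same Cufflinks locus. The code was tested on simulated data.

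Members and lists were chosen with earlier results of these data known. Full values are given for the 3 members of each role group with the largest change and for called SREBP and sphingolipid members, and in each wider list the 2 called genes with the largest change in each direction are named. Some genes that these rules name are not reported here. Marker genes are named by list. Alternatives covered the pseudocount, filter, scaling, variance trend, replicate block, adjusted p, choice of transcript, unnamed transcripts, values of 0 and each sample left out.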

Additional observations from a re-analysis of the deposited data

Results flagged for a closer look

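Acaca and Elovl1 had no signal in their named transcripts in any sample, but both had signal in unnamed transcripts of the same locus, which the comparison of named genes does not use. For Acaca the lowest sum of these over the 6 samples was 11.8 FPKM, and for Elovl1 it was 43.8 FPKM.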

How the results depend on the processing

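All 31 tested members kept their direction of call and their side of the threshold with a pseudocount of 0.1, no filter, median-of-ratios scaling, quantile normalization, an adjusted p under 0.01 or no variance trend, as did the 27 members left at a mean of at least 5 FPKM. Of the 10 members higher in SCPs 8, and of the 6 higher in RSCs 4, kept their call under every alternative. The highest transcript per gene lost Mvd, Dhcr7, Srebf1 and Scap, leaving 12 calls. Unnamed transcripts lost Scap, gained Mvk and Hsd17b7 and turned Tm7sf2 to a log2 fold change of -2.46. Leaving out values of 0 gained Mvk and Sqle. At a mean of at least 5 FPKM 1 member was over 4-fold. The members' median log2 fold change was -0.47 with quantile normalization, -0.30 with median-of-ratios scaling and -0.53 without values of 0, and ran from -0.48 to -0.29 with a sample left out, when 16 or 17 members were called. Sqle was gained without RSC replicate 1 and without RSC replicate 2, and Tm7sf2 was gained, higher in RSCs, without SCP replicate 2. With 1 sample left out, members over 4-fold numbered 2 or 3. The cause of these changes was not tested.

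Median-of-ratios scaling moved the median of all tested genes from -0.17 to 0.01 and the share of called genes that were higher in RSCs from 44.6% to 55.7%. Samples with the same number had correlations of deviations of 0.04, -0.0049 and 0.03. With 3 samples per group these values cannot tell whether the numbers pair the samples. A fit with a replicate block called the same 16 members. Absolute depth is unknown, so what it limits could not be measured.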
